A study of Mus musculus with 36 samples.

Results

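Gene expression in mouse brain was compared between mice given bacterial lipopolysaccharide (LPS) followed by genipin and mice given LPS alone. The comparison used 6 of the 36 one-colour arrays of the series, 3 from brains labelled LPS plus genipin and 3 from brains labelled LPS, and it covered the 10224 genes measured in brain of 12394 with a probe. A further 3 brain arrays from mock mice, which received no treatment, gave the baseline and shared the estimate of spread. All mice were FVB females of 6 to 8 weeks carrying a luciferase transgene with a promoter that the sources used here do not name, so the mock, LPS and LPS plus genipin groups all carried it. The LPS dose was 4 mg/kg by intraperitoneal injection, with genipin 10 min afterwards and organs collected another 4 h later. The series describes genipin doses of 1, 10 and 100 mg/kg with 5 mice in each group, and the sources used here do not say which dose lies behind these arrays. They also leave unsaid whether each of the 3 arrays per group is a mouse of its own, so that p-values measure the spread between these arrays, which may be technical.

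LPS is a component of the outer membrane of Gram-negative bacteria. It is recognised by TLR4 with the help of CD14, and the signal branches into NF-kB, which drives cytokines, chemokines and its own inhibitors, and into interferon regulatory factors, which drive type I interferon and through it a large set of interferon-stimulated genes. After injection into the periphery, the brain responds mainly through its blood vessels, choroid plexus, meninges, astrocytes and microglia. Genipin is the aglycone of geniposide, an iridoid of gardenia fruit, used as a protein crosslinker and as an inhibitor of the mitochondrial carrier UCP2.

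All levels below are log2 intensities of 1 probe per gene, with intensities under 263 raised to that floor (8.04 on the log2 scale) and intensities of 60000 or more counted as saturated. A difference is LPS plus genipin minus LPS on that scale, with its standard error (SE, n = 3 arrays per group), and adjusted p-values are from limma with Benjamini-Hochberg adjustment over all 10224 genes. Where all arrays of a group lay at a limit, the fold is a bound ("at least"). The deposited brain values had been brought to a common distribution, with array medians from 2096 to 2098. Arrays of a group correlated at 0.996 to 0.998 in mock, 0.989 to 0.992 in LPS and 0.993 to 0.995 in LPS plus genipin brains, and the median SD of a gene was 0.0586, 0.140 and 0.0963 in that order. The tissue label was checked against markers. All 9 measured neuronal markers lay above the floor in all 3 groups, with summed intensities of 312562 to 328014 in mock, 312454 to 326080 in LPS and 303237 to 325306 in LPS plus genipin arrays. Skeletal muscle markers set the mock arrays apart: the 10 measured markers summed to 193981 to 204758 in mock against 63115 to 71985 in LPS and 48080 to 54776 in LPS plus genipin arrays, and 9 of the 10 lay below mock in each treated group. Their median level was 13.04 to 13.08 in mock, 8.86 to 8.92 in LPS and 8.93 to 9.15 in LPS plus genipin arrays. Pvalb of this list also stands on the cerebellar list, and its part in the sums was not tested. Mylpf, a myosin light chain of fast muscle, stood at 15.64, 15.76 and 15.65 in mock and at 8.37, 8.60 and 8.19 in LPS arrays. The mock arrays enter the difference between the treated groups only through the estimate of spread, but they enter every comparison with mock, and the part of muscle RNA in those was not tested. In 10 genes with a difference of at least 1 in either direction, the arrays of a treated group lay far apart (SD above 1). Genes with a smaller difference were not counted. Clns1a and Jak2 were picked after their values were seen. In Clns1a, genipin arrays 1 and 2 were at the floor and array 3 at 13.32, and it was not called (limma adjusted p = 0.0624). Jak2 was at the floor in all LPS arrays but read 8.64, 11.24 and 11.44 with genipin, and it was called higher (adjusted p = 0.0262).

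A large share of brain transcripts differed between the LPS plus genipin and the LPS arrays, most of them by little. Of the 10224 genes, 1669 were higher than with LPS alone (16.3%) and 1414 lower (13.8%), together 3083 (30.2%), at an adjusted p under 0.05. Among these the median absolute difference was 0.41, and only 68 genes rose (0.665%) and 99 fell (0.968%) by at least 2-fold. For 3994 genes (39.1%) all genipin arrays lay on one side of all LPS arrays, and 42.1% had an unadjusted p under 0.05. The median difference over all genes was 0.01. LPS alone against mock called 3464 genes (33.9%), and LPS plus genipin against mock called 1484 (14.5%), with 8.86% higher and 5.65% lower; for LPS alone these were 16.4% and 17.5%. These 3 comparisons share arrays, so their values are given side by side and their overlap is not read as a result. With only the 6 arrays compared in the fit, 999 genes were higher and 907 lower. Counts of called genes in the lists below stand against 16.3% higher and 13.8% lower over all genes.

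**Figure D1:**
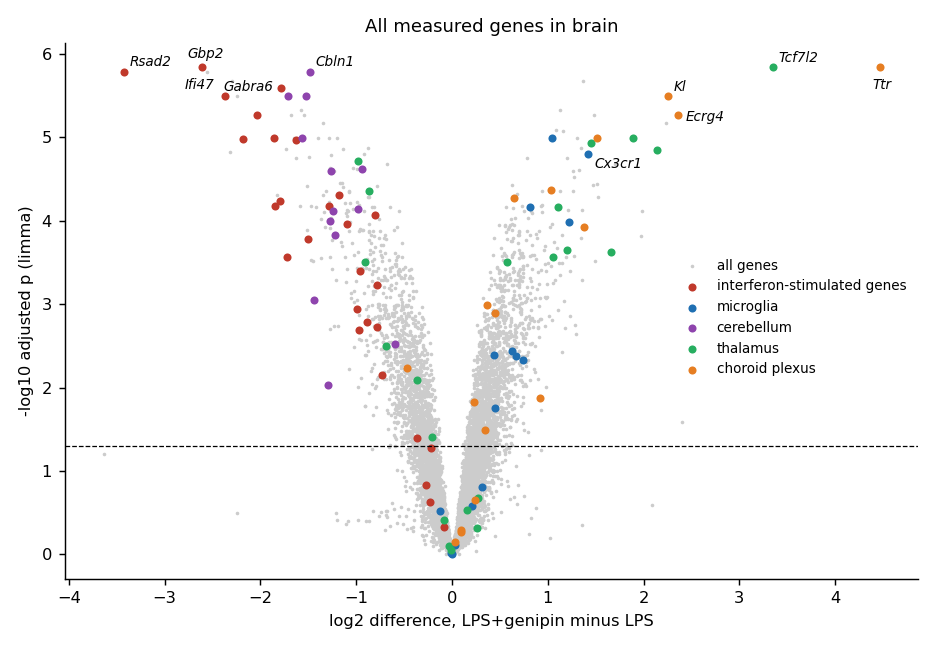
Each point is 1 of 10224 genes, with the log2 difference (LPS plus genipin minus LPS) on the horizontal axis and -log10 of limma's adjusted p on the vertical axis; the dashed line marks an adjusted p of 0.05. Interferon-stimulated (red) and cerebellar (purple) genes lie to the left, choroid plexus (orange) and microglial (blue) genes mostly to the right, thalamic genes (green) on both sides; the value of Ttr is a bound.

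The promoters of 4 interferon-stimulated genes that fell and of Nfkbia are shown because the letters that interferon and NF-kB signalling are known to act through can be looked for in them. Capitals mark a match, on either strand, to the core of the interferon-stimulated response element (GAAA, any 2 bases, GAAA) or, in Nfkbia, to an NF-kB site (GGGA, any 2 bases, TTCC), and overlapping matches run together but are counted each. Each window runs from 250 bases before to 50 bases after the gene's start in RefSeq (GRCm38.p6) and is written 5′ to 3′ along the gene.
Rsad2 (chr12:26456403-26456702, minus strand): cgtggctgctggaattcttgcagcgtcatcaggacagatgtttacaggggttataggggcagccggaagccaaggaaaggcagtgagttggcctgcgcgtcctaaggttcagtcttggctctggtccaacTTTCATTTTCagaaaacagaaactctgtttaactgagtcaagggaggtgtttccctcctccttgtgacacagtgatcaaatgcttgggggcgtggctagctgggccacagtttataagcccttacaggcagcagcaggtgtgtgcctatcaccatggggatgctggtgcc
Isg15 (chr4:156200769-156201068, minus strand): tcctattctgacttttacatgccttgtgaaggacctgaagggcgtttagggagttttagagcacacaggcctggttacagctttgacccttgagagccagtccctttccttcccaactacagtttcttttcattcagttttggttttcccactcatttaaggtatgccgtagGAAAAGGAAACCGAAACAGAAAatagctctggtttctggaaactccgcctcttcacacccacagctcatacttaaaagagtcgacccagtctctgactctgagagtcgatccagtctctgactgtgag
Ifit3 (chr19:34583279-34583578, plus strand): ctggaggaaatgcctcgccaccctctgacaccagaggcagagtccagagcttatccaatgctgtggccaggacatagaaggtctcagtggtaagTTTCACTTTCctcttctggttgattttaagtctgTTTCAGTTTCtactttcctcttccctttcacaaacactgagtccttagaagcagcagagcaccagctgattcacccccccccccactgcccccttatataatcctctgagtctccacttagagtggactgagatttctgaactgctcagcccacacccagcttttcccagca
Gbp2 (chr3:142620413-142620712, plus strand): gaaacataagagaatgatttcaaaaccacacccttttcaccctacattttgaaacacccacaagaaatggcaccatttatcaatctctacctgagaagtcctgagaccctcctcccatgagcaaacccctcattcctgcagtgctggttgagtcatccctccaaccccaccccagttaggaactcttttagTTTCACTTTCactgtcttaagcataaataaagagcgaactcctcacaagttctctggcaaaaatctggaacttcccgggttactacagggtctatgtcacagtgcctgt
Nfkbia (chr12:55492598-55492897, minus strand): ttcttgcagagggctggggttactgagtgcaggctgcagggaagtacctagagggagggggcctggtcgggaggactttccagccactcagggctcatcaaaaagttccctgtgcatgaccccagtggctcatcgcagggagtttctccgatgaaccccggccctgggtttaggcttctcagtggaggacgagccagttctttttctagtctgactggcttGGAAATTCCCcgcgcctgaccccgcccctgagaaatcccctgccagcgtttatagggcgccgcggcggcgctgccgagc
The nearest match began 120 bases before the start in Rsad2, 66 in Isg15, where 3 matches overlap, 122 in Ifit3, 59 in Gbp2 and 29 in Nfkbia. The response element core occurred in 11 of 25 windows (44%), from 11 of the 21 matched interferon-stimulated genes that fell. It occurred in 3.44% of all 32851 windows and in 2.59% of those of genes measured in brain. Over all genes that fell the share was 3.36%, and over all that rose 2.55%. The list holds genes known to respond to interferon and most of it fell, so the 44% describes the list and not the fall. The NF-kB letters occurred in 3 of 11 windows (27.3%), from 2 of the 8 matched NF-kB genes that fell, against 1.47% of all windows. These genes were Nfkbia and Nfkb2. The Nfkb2 windows with a match overlap and share 1 match, which is counted in each, so the 27.3% is too high as a share of separate sites. Over all genes that fell the letters occurred in 2.13% of windows, and over all that rose in 1.19%. A match describes the letters and not a working site.

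Interferon-stimulated genes were lower with genipin. Of 45 listed, 28 were measured, 24 of them fell, none rose, and the median difference was -1.14. The 28 genes summed to intensities of 63484 to 65611 in LPS and 26144 to 27482 in LPS plus genipin arrays, against 20173 to 21137 in mock. Against mock, 26 of the 28 were higher with LPS alone (median 1.56) and 14 with LPS plus genipin (median 0.43). The summed level with genipin thus lay below all LPS arrays and above all mock arrays.

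Rsad2, which encodes the antiviral enzyme viperin, stood at 12.15, 12.33 and 12.19 in the LPS arrays and at 8.94, 8.57 and 8.88 with genipin, against a mock mean of 8.18. All 3 genipin arrays lay below all LPS arrays and above all mock arrays. The difference was -3.43 ± 0.10 (adjusted p = 1.65e-06), 10.7-fold lower and the largest fall among the genes called. Gbp2, a guanylate-binding protein of the response to interferon-gamma, went from 12.96, 12.996 and 13.08 to 10.43, 10.47 and 10.31, again without overlap (-2.61 ± 0.07, adjusted p = 1.45e-06), and remained 1.26 above mock. Ifi47, an interferon-induced GTPase, lay at 12.29, 12.50 and 12.60 with LPS and at 10.10, 10.14 and 10.02 with genipin (-2.38 ± 0.08), 1.70 above mock. Gbp3 fell by 2.18 and Irgm2, another GTPase of the family that attacks pathogen vacuoles, by 1.86 on the log2 scale, both with separate groups of arrays.

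Isg15, a ubiquitin-like protein, read 10.69, 10.66 and 10.62 with LPS and 8.78, 8.68 and 8.42 with genipin, while all 3 mock arrays lay at the floor. It was 4.09-fold lower with genipin (-2.03 ± 0.08, adjusted p = 5.49e-06). Usp18, the protease that removes ISG15 from its targets, read 10.43, 10.18 and 10.53 and 8.36, 8.60 and 8.79, also with mock at the floor (-1.79 ± 0.12). The IFIT proteins bind viral RNA. Ifit3 fell by 1.85 and Ifit2 by 1.72, and Ifit2 then lay 0.42 above mock, a difference that was not called (adjusted p = 0.141).

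**Figure D2:**
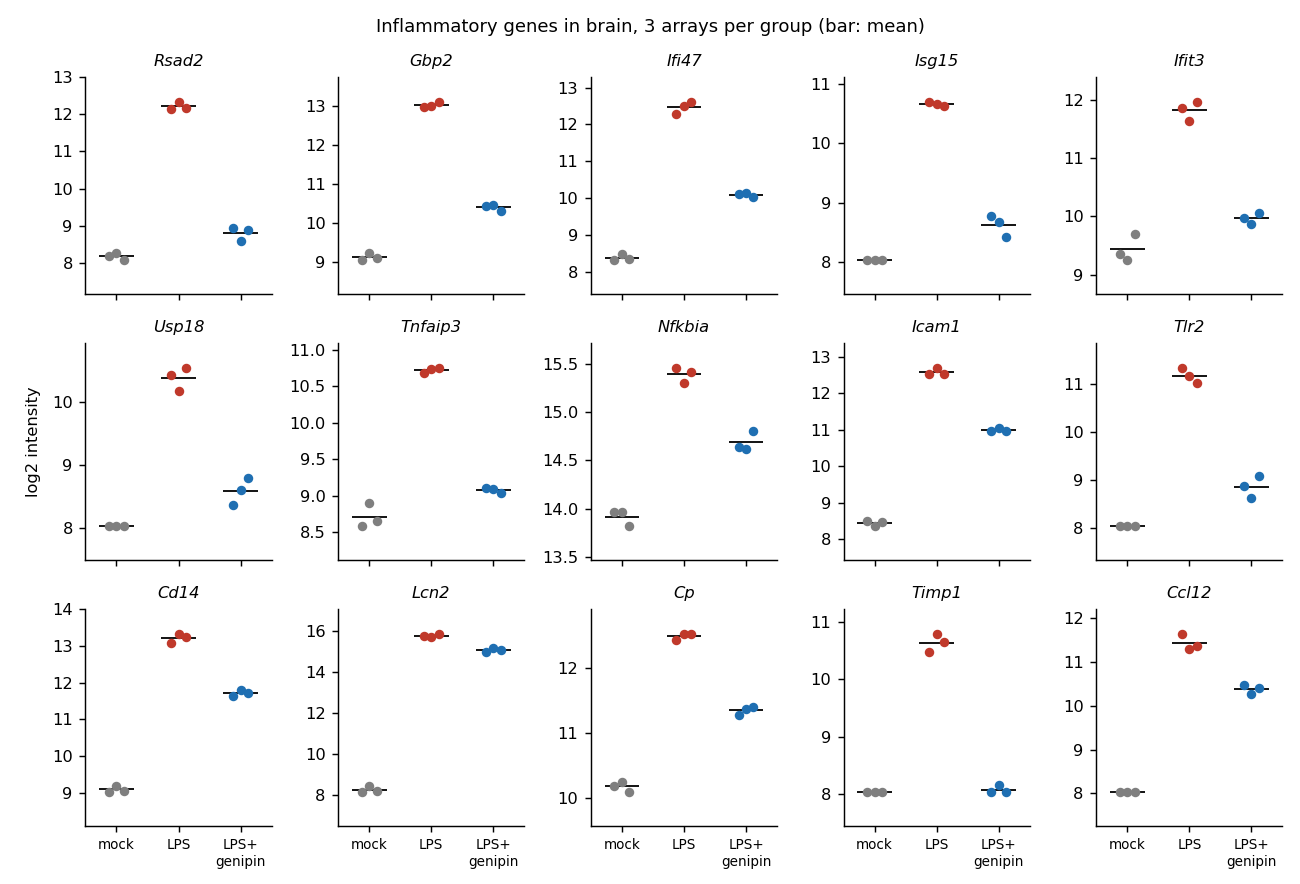
Log2 intensity (vertical axis) of 15 inflammatory genes in the 3 mock (grey), 3 LPS (red) and 3 LPS plus genipin (blue) brain arrays, with the group mean as a bar; each panel has its own scale, and 8.04 is the floor. In each panel the genipin arrays lie below the LPS arrays, at 8.79 against 12.22 on average for Rsad2 and at 15.08 against 15.77 for Lcn2.

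NF-kB feedback and target genes fell as well, by less. Of 19 listed, 12 were measured, 10 fell, none rose, and the median difference was -0.71. LPS alone had placed 10 of the 12 above mock (median 0.85), and 5 were still above mock with genipin (median 0.24). Tnfaip3, the ubiquitin-editing inhibitor A20, read 10.68, 10.73 and 10.75 with LPS and 9.10, 9.09 and 9.03 with genipin, 3.13-fold lower (-1.65 ± 0.08, adjusted p = 1.03e-05). Its genipin arrays lay above all mock arrays (8.58, 8.89 and 8.66). Birc3, an inhibitor of apoptosis, fell by 1.18, Nfkb2, the precursor of the p52 subunit, by 0.99, Ier3 by 0.79 and Relb by 0.76. Nfkbia, the inhibitor IkB-alpha whose promoter is printed above, went from 15.45, 15.30 and 15.41 to 14.64, 14.62 and 14.80 with mock at 13.96, 13.97 and 13.82. The 3 groups did not overlap, and the difference was -0.70 ± 0.07 (adjusted p = 0.000377), 0.77 above mock.

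Some genes of LPS recognition fell, while most of this list was not called. Of 18 measured genes of this list, 5 fell, 1 rose, and the median difference was -0.01. Tlr2, a receptor for bacterial lipoproteins that LPS induces, was at the floor in mock, at 11.33, 11.16 and 11.02 with LPS and at 8.87, 8.62 and 9.08 with genipin. It fell 4.99-fold (-2.32 ± 0.12, adjusted p = 1.52e-05) without overlap. Cd14, the co-receptor that hands LPS to TLR4, read 13.07, 13.32 and 13.26 and 11.64, 11.80 and 11.72 (-1.50 ± 0.08), and its genipin arrays remained 2.62 above mock. The adaptor Myd88 fell by 0.71, Irak3, a brake on the pathway, by 0.58, and Tlr1 by 0.48. The call on Tlr1 was lost without LPS replicate 3, without genipin replicate 2 or 3, or without any 1 mock array (adjusted p from 0.0575 to 0.109).

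Acute-phase proteins were lower, and most were still above mock. Of 5 measured, 3 fell (median -0.69), all 5 were above mock with LPS alone and 4 with genipin. Lcn2, lipocalin 2, which withholds iron from bacteria, was the gene furthest above mock among those named here. It read 15.77, 15.69 and 15.85 with LPS and 15.01, 15.17 and 15.07 with genipin against 8.15, 8.42 and 8.18 in mock. The groups did not overlap (-0.69 ± 0.08, adjusted p = 0.000832), yet the genipin arrays still lay 6.83 above mock, against 7.53 for LPS alone. Cp, the copper carrier ceruloplasmin, went from 12.43, 12.51 and 12.51 to 11.27, 11.36 and 11.40, and 10.18 was its mock mean. It fell 2.2-fold (-1.14 ± 0.06). A2m, a protease inhibitor, fell by 0.70 and then did not differ from mock beyond the spread (0.02, adjusted p = 0.858).

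Chemokines and cytokines were thinly covered. Of 19 chemokines 5 were measured, with 3 lower and 1 higher, and of 17 cytokines 5, with 2 lower and 1 higher. Tnf, Il6, Il1b, Nos2, Ccl2, Cxcl10 and Ucp2 were not among the genes measured in brain. Ccl12, which attracts monocytes, was at the floor in mock, at 11.62, 11.30 and 11.35 with LPS and at 10.47, 10.26 and 10.40 with genipin (-1.05 ± 0.09). Ccl17 fell by 0.36 and Cxcl16 by 0.42, the latter not called without genipin replicate 1 or 2 (adjusted p 0.0626 and 0.0602). Cxcl12, a chemokine of the resting vessel wall and meninges, moved the other way, from 10.01, 10.23 and 9.86 with LPS to 11.48, 11.59 and 11.60 with genipin, with mock at 12.53, 12.54 and 12.74. Its other probe, brighter with LPS (mean 11.55), differed by only 0.24, so the size of this rise depends on the probe. Csf1, a growth factor of microglia, fell by 0.46, Il15 by 0.28 close to the floor, and the alarmin Il33 rose by 0.77. Ptgs2, the inducible cyclooxygenase, read 11.79, 11.62 and 11.11 with LPS and 11.19, 10.94 and 11.12 with genipin, with overlapping arrays (-0.42 ± 0.17, adjusted p = 0.0928). Without LPS replicate 3, which lies within the genipin range, Ptgs2 was called lower at -0.62 (adjusted p = 0.00686).

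Genes of the reactive astrocyte list fell with this group, 13 of 20 measured, with 1 higher and a median of -0.69. Of the 20 members, 7 also stand on the acute-phase, interferon, LPS recognition or astrocyte lists. LPS alone had placed all 20 above mock. Timp1, an inhibitor of matrix metalloproteinases, read 10.48, 10.78 and 10.64 with LPS, and with genipin 2 of the 3 arrays were at the floor and the other at 8.15, as were all 3 mock arrays at the floor. It fell 5.89-fold (-2.56 ± 0.08, adjusted p = 1.65e-06). B3gnt5, a glycosyltransferase, fell by 1.27 to below mock (-0.65). Gfap, the astrocyte filament protein, rose by 0.25 on the probe used, while its other probe differed by -0.34 and the mean of both by -0.04, so its direction depends on the probe. Markers of resting astrocytes held 1 higher and 1 lower of 10, with a median of 0.05.

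**Figure D3:**
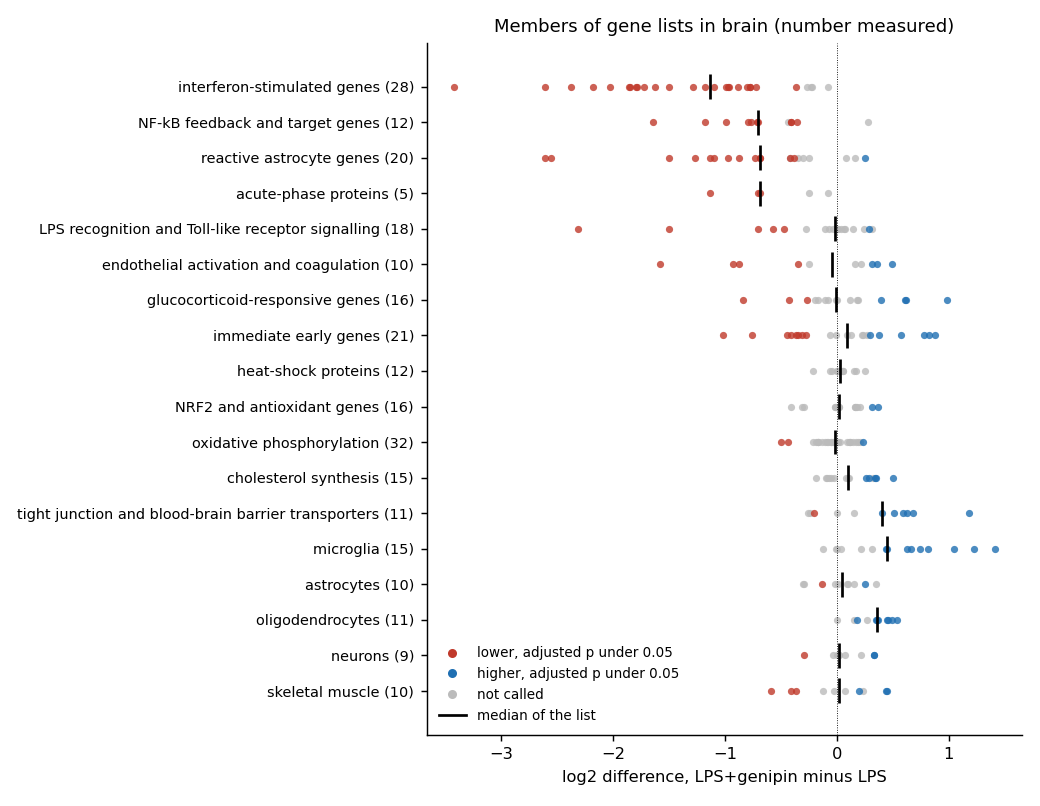
Each dot is 1 member of a gene list, placed by its log2 difference (LPS plus genipin minus LPS) on the horizontal axis; red and blue dots passed limma's adjusted p of 0.05, grey ones did not, and the black bar is the median of the list. The medians run from -1.14 for interferon-stimulated genes to 0.45 for microglia, while heat-shock proteins have no called member.

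Microglial genes were higher with genipin than with LPS alone. Of 17 listed, 15 were measured, 9 rose, none fell, and the median difference was 0.45. The 15 markers summed to 33094 to 36050 in LPS, 46962 to 47343 in LPS plus genipin and 49008 to 49358 in mock arrays. In a bulk sample, fewer cells of a type and less RNA per cell cannot be told apart. Cx3cr1, the fractalkine receptor, read 10.69, 10.69 and 10.63 in mock, 8.26, 8.40 and 8.52 with LPS and 9.71, 9.88 and 9.84 with genipin. The genipin arrays lay between the others, above all LPS and below all mock arrays (1.42 ± 0.07, adjusted p = 1.59e-05). P2ry12, the receptor for ADP that guides microglial processes, read 10.90, 10.79 and 10.85 and 11.86, 11.96 and 11.86 (1.05 ± 0.05), with mock at 12.38 on average. Gpr34 was at the floor in all 3 LPS arrays and read 9.05, 9.29 and 9.44 with genipin, at least 2.33-fold higher. Olfml3 rose by 0.81 and Tmem119 by 0.74. The complement genes C1qa, C1qb and C1qc, picked out after their values were seen, were not called (-0.00, -0.13 and 0.21). Of 5 measured markers of monocytes and macrophages 3 rose, among them Adgre1 by 0.60, and of 6 neutrophil markers 1 rose, Csf3r by 0.36. The neutrophil markers summed to 2645 to 2702 in mock, 4285 to 5071 in LPS and 5014 to 5127 in LPS plus genipin arrays. T and B cells had 1 measured marker, Cd79a, at the floor in all mock and genipin arrays and not called, and red blood cells had 1 lower of 2.

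Vascular genes moved in both directions. Of 10 measured genes of endothelial activation and coagulation, 4 fell and 3 rose, with a median of -0.04. Icam1, the adhesion molecule that leukocytes bind, stood at 8.49, 8.37 and 8.47 in mock, 12.52, 12.69 and 12.52 with LPS and 10.98, 11.05 and 10.96 with genipin. It fell 2.99-fold without overlap (-1.58 ± 0.06, adjusted p = 4.74e-06) and remained 2.55 above mock. Angpt2, an antagonist of the receptor TIE2, fell by 0.93 and Ackr1, a chemokine-binding protein of venules, by 0.88, and both had been above mock with LPS (1.90 and 1.28). Thbd, thrombomodulin, which turns thrombin toward anticoagulation, rose by 0.49 after lying below mock with LPS (-0.89), and tissue factor, F3, rose by 0.36. The call on F3 was lost without genipin replicate 1 or 2 (adjusted p 0.0595 each) and with only the 6 arrays compared (0.0664).

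Endothelial markers held 5 higher and 2 lower of 13 measured, with a median of 0.19. Tek, which encodes TIE2, read 10.38, 10.40 and 10.19 in mock, 8.26, 8.59 and 8.53 with LPS and 9.47, 9.59 and 9.63 with genipin (1.10 ± 0.10, adjusted p = 0.000214), so its genipin arrays lay between the other groups. Kdr, a receptor for VEGF, rose by 0.64. Cdh5, the cadherin of endothelial junctions, and Robo4 fell by 0.77 and 0.50. Of 8 markers of pericytes and smooth muscle 2 rose, Higd1b by 0.92 and Abcc9 by 0.61, the latter not shared by its other probe (-0.02). Of 11 measured tight junction and barrier transporter genes, 6 rose and 1 fell, with a median of 0.40. Slco1a4, an organic anion carrier of brain capillaries, read 8.09, 8.04 and 8.04 with LPS, where 2 arrays were at the floor, and 9.32, 8.996 and 9.38 with genipin (1.18 ± 0.17). The efflux pump Abcg2 rose by 0.68, the thyroid hormone carrier Slco1c1 by 0.62 (not called with only the 6 arrays compared, adjusted p = 0.0585), the glucose transporter Slc2a1 by 0.59 and the junction protein Tjp1 by 0.51.

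**Figure D4:**
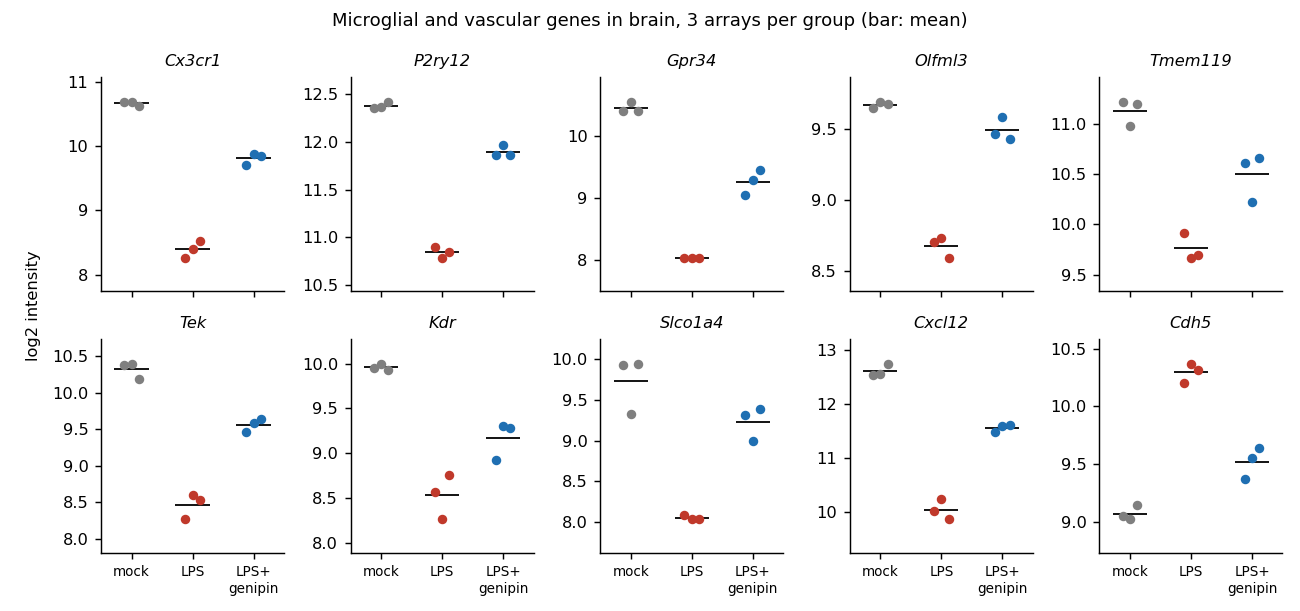
Log2 intensity (vertical axis) of 5 microglial and 5 vascular genes in the 3 mock (grey), 3 LPS (red) and 3 LPS plus genipin (blue) brain arrays, with the group mean as a bar; each panel has its own scale. In all panels the genipin mean lies between the LPS and the mock mean, at 9.81 between 8.40 and 10.67 for Cx3cr1; Cdh5 runs the opposite way from the rest.

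Stress programmes held few large differences. Of 12 heat-shock proteins none was called by limma and 4 had an unadjusted p under 0.05, and the extremes were Cryab at 0.25 (adjusted p = 0.063) and Bag3 at -0.21 (adjusted p = 0.0532). Each of these was called without 1 LPS array, Cryab without replicate 2 and Bag3 without replicate 3 (adjusted p 0.00718 and 0.00586). Of 16 NRF2 and antioxidant genes 2 rose, the glutamate-cysteine ligase subunit Gclm by 0.37 and Nfe2l2, which encodes NRF2, by 0.31. Of 17 genes of the unfolded protein response, 4 fell and 1 rose, led by the chaperone cofactor Sdf2l1 at -0.63 and Edem1 at 0.71. Of the 4 that fell, Hsp90b1, Herpud1 and Atf4 lost the call with the replicate number as a block (adjusted p 0.0651, 0.0592 and 0.0635) and in most fits without 1 array, those without any 1 mock array included (0.0529 to 0.145). Sdf2l1 was not called with only the 6 arrays compared (0.0579).

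Of 32 genes of oxidative phosphorylation 2 fell and 1 rose, with a median of -0.02, and of 12 ribosomal proteins 1 rose (Rps24, 0.55). The 3 measured members of the uncoupling list were not called, and the mitochondrial carriers Slc25a14 and Slc25a27 differed by 0.11 and 0.04. Cholesterol synthesis held 5 higher and none lower of 15, from 0.25 for Lss to 0.50 for Nsdhl, whose other probe differed by -0.09. The circadian list had 2 lower of 16, Nfil3 by 0.52 and Rora by 0.36, and the cell cycle list 1 higher and 1 lower of 8, Mcm6 by 0.26 and Mcm5 by 0.59. Nfil3 was not called without genipin replicate 2 (adjusted p = 0.0608), and Mcm6 was not called without LPS replicate 2 or 3, genipin replicate 1 or 3 or any 1 mock array (0.0520 to 0.0943).

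Glucocorticoid-responsive genes, which read the stress axis, held 4 higher and 3 lower of 16, against 16.3% and 13.8% over all genes. Their median was -0.01. Plin4, a lipid droplet protein, read 11.83, 11.88 and 11.64 with LPS and 12.53, 12.34 and 12.32 with genipin (0.61 ± 0.09), further from its mock mean of 9.60. Lyve1 rose by 0.99, and Errfi1, a feedback inhibitor of the EGF receptor, fell by 0.84. Immediate early genes moved in both directions, 6 higher and 8 lower of 21. Egr2, a transcription factor induced by neuronal activity, read 11.90, 11.98 and 11.87 in mock, 10.28, 10.25 and 10.50 with LPS and 11.16, 11.25 and 11.23 with genipin (0.87 ± 0.07). Egr4 rose by 0.82 and Fosb by 0.78. Zfp36, which marks cytokine mRNAs for decay, fell from 12.21, 11.93 and 12.16 to 11.17, 11.05 and 11.01, still 1.51 above mock, and Maff fell by 0.76.

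Choroid plexus transcripts are given apart. The choroid plexus is the epithelium in the ventricles that makes cerebrospinal fluid. Of 30 listed genes 17 were measured, 12 rose, 1 fell, and the median difference was 0.45. The list summed to 94727 to 95214 in mock, 23957 to 29812 in LPS and 104898 to 111286 in LPS plus genipin arrays. Ttr, transthyretin, the leading product of this epithelium, read 11.64, 11.23 and 11.73 with LPS and was saturated in all genipin arrays, at least 22.1-fold higher (adjusted p = 1.45e-06). It was saturated in all mock arrays too, so its levels in those groups cannot be compared. Ecrg4 read 10.41, 10.38 and 10.48 in mock, 9.65, 9.73 and 9.40 with LPS and 12.06, 11.995 and 11.81 with genipin (2.36 ± 0.10), and here the genipin arrays stood above both other groups. Kl, which encodes Klotho, read 8.998, 9.21 and 9.01 and 11.17, 11.39 and 11.42 with a mock mean of 9.82 (2.25 ± 0.08). Clic6 rose by 1.38, Ace by 1.04 and Enpp2 by 0.92, while Sostdc1 and Folr1 were at the floor in all LPS arrays and rose at least 2.85-fold and 1.57-fold. Enpp2 is also made by oligodendrocytes and was not called with only the 6 arrays compared (adjusted p = 0.0534). All 5 measured ependymal markers, genes of the ciliated lining of the ventricles, rose as well (median 0.94), led by Dynlrb2 at 1.23 and Enkur at 1.03, and summed to 4002 to 5025 in LPS and 7000 to 7829 in LPS plus genipin arrays. The sources used here do not say which parts of the brain each RNA sample held, so the share of a region in a sample and its expression cannot be told apart.

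Thalamic transcripts are likewise given apart. Of 30 listed genes 21 were measured, 9 rose, 6 fell, and the median difference was 0.26. Tcf7l2, a transcription factor of the Wnt pathway that defines thalamic neurons, read 11.35, 11.31 and 11.30 in mock, 10.03, 10.22 and 9.88 with LPS and 13.51, 13.39 and 13.28 with genipin. It rose 10.2-fold (3.35 ± 0.09, adjusted p = 1.45e-06), above all mock arrays. Tnnt1, a troponin of slow muscle that thalamic relay neurons also carry, read 9.67, 9.44 and 9.62, 9.37, 9.54 and 9.47 and 11.42, 11.55 and 11.82 in the same order (2.14 ± 0.11). Slc17a6, the vesicular glutamate transporter VGLUT2 of thalamus and brainstem, read 12.64, 12.82 and 12.47 with LPS and 14.58, 14.57 and 14.46 with genipin (1.89 ± 0.09). Amotl1 rose by 1.66, Prkch by 1.45, Vav3 by 1.20, Ntng1 by 1.11 and Prkcd by 1.06. The 6 that fell, named after their values were seen, were Calb2 (-0.98), Zic1 (-0.91), Patj (-0.87), Zic4 (-0.69), Rora (-0.36) and Grid2ip (-0.21), and Calb2, Zic1, Zic4, Rora and Grid2ip are also known from the cerebellum.

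Cerebellar transcripts were lower throughout. Of 18 listed genes 13 were measured and all 13 fell, with a median difference of -1.28 and no overlap between the arrays of the groups for any of the 13. They summed to 245987 to 252079 in mock, 360112 to 399798 in LPS and 162176 to 172274 in LPS plus genipin arrays, so the LPS arrays lay above and the genipin arrays below mock. Gabra6, the GABA receptor subunit of cerebellar granule cells, read 13.89, 13.98 and 14.01 in mock, 14.69, 14.85 and 14.77 with LPS and 13.06, 13.13 and 12.99 with genipin (-1.71 ± 0.06, adjusted p = 3.23e-06). Cbln1, the granule cell protein that builds synapses onto Purkinje cells, read 15.14, 15.18 and 15.08, 15.89, 15.85 and 15.92 and 14.38, 14.42 and 14.40 (-1.48 ± 0.04). Cdh15 fell by 1.56, Ppp1r17, a Purkinje cell protein, by 1.53, and the hindbrain transcription factor En2 by 1.44. The share of cerebellum in each sample was not measured apart from these markers, and its part in the changes of other neuronal genes was not tested.

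**Figure D5:**
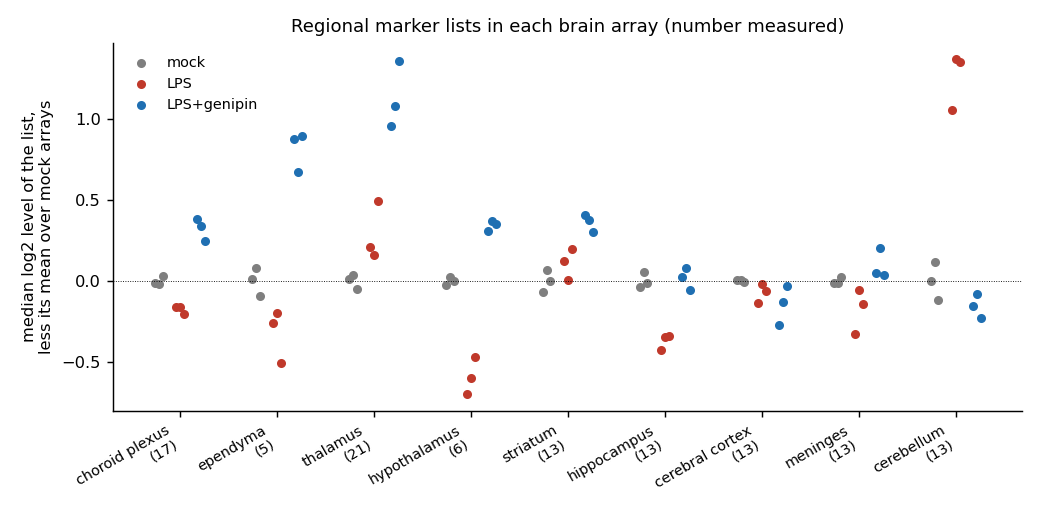
For 9 regional marker lists, each dot is the median log2 level of the list in 1 brain array less its mean over the 3 mock arrays (vertical axis), in mock (grey), LPS (red) and LPS plus genipin (blue). Genipin arrays lie above LPS arrays for choroid plexus, ependyma, thalamus, hypothalamus, striatum, hippocampus and meninges and below them for cerebellum, with overlap only in cerebral cortex.

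The other regional lists held rises and falls. Of 13 striatal genes 6 rose and 2 fell (median 0.32), led by Tac1, the precursor of substance P, which read 9.99, 9.96 and 9.72 with LPS and 11.56, 11.36 and 11.30 with genipin (1.52 ± 0.09), and the dopamine receptor Drd1, which rose by 0.93. Rarb, 1 of the 2 that fell, is uncertain: it lost the call with the replicate number as a block (adjusted p = 0.0694) and in all fits without 1 array except that without LPS replicate 1 (0.0603 to 0.147), and its other probe differed by 0.70. Of 13 hippocampal genes 6 rose and 1 fell (median 0.25), with Dsp, desmoplakin, of the dentate gyrus, at 1.27 and Neurod2 at -0.37. Cerebral cortex had 2 higher and 1 lower of 13 (median -0.03), with Tbr1, a transcription factor of deep-layer neurons, at 0.68 and Etv1 at least 1.4-fold lower. Of 6 hypothalamic genes 4 rose, Cartpt by 1.27 and Gal, galanin, from the floor in all LPS and mock arrays to 9.44, 9.36 and 9.10, at least 2.4-fold. Meningeal genes held 3 higher and 2 lower of 13, against 16.3% and 13.8% over all genes, with Col1a1 at 0.70 and Asgr1 at -0.87 leading. Of 7 genes of the midbrain and hindbrain monoamine nuclei 3 rose and 2 fell: En1 was at the floor in all LPS arrays and at least 2.59-fold higher, and Slc6a5, the glycine transporter of hindbrain and cerebellum, fell at least 2.93-fold to the floor. In this list Dbh (-0.42) and Slc6a3 (0.22) lost the call with the replicate number as a block (adjusted p 0.0510 and 0.0640). Dbh also lost it without LPS replicate 2 or 3 or genipin replicate 2 or 3 (0.0654 to 0.0872), and Slc6a3 without LPS or genipin replicate 1 or 2 or any 1 mock array (0.0545 to 0.102). The olfactory bulb list had 1 higher and 2 lower of 4, and the pituitary list 1 higher of 2 (Lhb, 0.43).

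Neuronal genes followed no single direction. General neuronal markers held 2 higher and 1 lower of 9 (median 0.02), synaptic vesicle genes 1 higher and 3 lower of 20 (median -0.01). The synaptic gene that rose is Slc17a6, given with the thalamus, and Syt2, a calcium sensor of release known from cerebellum and brainstem, fell by 1.00. GABA and glycine receptors held 5 higher and 3 lower of 13. The lower ones included Gabra6 and Gabrd, the extrasynaptic subunit of cerebellar granule cells, which read 13.32, 13.50 and 13.64 and 12.19, 12.14 and 12.33 (-1.27 ± 0.09), and the higher ones Gabrg1 at 0.80 and Glra2 at 0.67. Glutamate receptors held 5 higher and 2 lower of 14, with Grin2c, the NMDA receptor subunit of cerebellar granule cells, at -1.48 ± 0.14, Gria4 at -0.74 and Grm3 at 0.61. Voltage-gated channels held 8 higher and 7 lower of 37, against 16.3% and 13.8% over all genes. The pacemaker channel Hcn2 differed by 0.71, and Cacna1a was at least 1.6-fold lower and at the floor. Among neuropeptides 7 rose and 1 fell of 19 (median 0.20), of which Tac1, Cartpt and Gal are given above, Nts rose by 0.62 and Calca by 0.55.

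Myelin genes were moderately higher. Of 11 measured oligodendrocyte genes 8 rose and none fell, with a median of 0.36 and summed intensities of 180866 to 192640 in mock, 196859 to 201393 in LPS and 224531 to 233549 in LPS plus genipin arrays. Mobp read 13.96, 14.15 and 14.13 with LPS and 14.61, 14.72 and 14.53 with genipin (0.54 ± 0.07), while its other probe differed by 0.10. Fa2h rose by 0.49, Ermn by 0.46 and Mag by 0.45. No fit without 1 array kept this count: it was 5 to 7 of 11, with 5 without LPS replicate 1 or without genipin replicate 2. It was also 5 with only the 6 arrays compared. Oligodendrocyte precursors held 3 higher of 7, with Olig1 at 0.31.

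Among the 15 largest falls and the 15 largest rises outside the choroid plexus and thalamic lists, counting called genes whose groups did not overlap and lay within the limits of the scale, 4 falls and 12 rises belong to none of the lists. Crtam, an adhesion molecule of T cells that is also made in brain, read 11.85, 11.87 and 11.86 in mock, 13.58, 13.44 and 13.68 with LPS and 11.33, 11.33 and 11.15 with genipin (-2.30 ± 0.07, adjusted p = 2.13e-06). Mybpc3, cardiac myosin-binding protein C, read 9.54, 9.29 and 9.39, 10.74, 10.83 and 10.996 and 8.58, 8.63 and 8.61 (-2.25 ± 0.08). Both lay above mock with LPS and below it with genipin, as did Chil5, a chitinase-like protein, which fell by 1.82. The summed cerebellar list had the same order of groups, and the part of regional share in these falls was not tested. Prg4, lubricin, fell by 1.73 to a level 0.27 above mock (adjusted p = 0.0794).

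Zfhx3, a homeobox transcription factor, read 9.79, 9.84 and 9.78 in mock, 9.25, 9.34 and 9.06 with LPS and 11.63, 11.36 and 11.35 with genipin (2.23 ± 0.10, adjusted p = 6.73e-06). Tal1, a helix-loop-helix factor of blood and of midbrain GABA neurons, read 8.10, 8.14 and 8.04 and 10.19, 9.72 and 10.28 (1.97 ± 0.17). Igsf1 rose by 1.99, the guanine exchange factor Mcf2 by 1.70, the nicotinic receptor subunit Chrna4 by 1.49 and Vash2 by 1.48. Slc2a12, C1ql2 and Etnppl each rose by 1.35. All of these lay above mock with genipin. Tcf7l2 of the thalamic list did so too, and the part of regional share in these rises was not tested. Cfap126 and Rsph1, of motile cilia, rose by 1.47 and 1.35. Slco2b1 read 10.81, 10.87 and 10.76 in mock, 9.22, 9.21 and 8.97 with LPS and 10.48, 10.51 and 10.41 with genipin (1.33 ± 0.08) and thus stayed below mock, as Cxcl12 and Cx3cr1 did.

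The difference with genipin in brain was tested against that elsewhere over the 6861 genes measured in brain, heart, kidney and liver. The value tested was the signed brain difference less the mean of the other 3. Of the 6861 genes, 3015 differed (43.9%), 1286 with the brain difference higher (18.7%) and 1729 lower (25.2%). A gene can differ here with little change in brain, as Cmpk2 did (-0.08 in brain, -3.87 in liver). The fall of interferon-stimulated genes was not larger in brain as a list: over the 26 of them measured in all 4 tissues, the median difference was -1.23 in brain against -1.59 in heart, with kidney at -1.36 and liver at -1.41. Of the 26, the brain difference was higher for 13 and lower for 5. The single genes that follow were picked partly for their change in brain, so their values are a description. Rsad2 had a lower difference in brain (-3.43) than in heart (-1.89), kidney (-0.93) and liver (-3.29), with a brain difference less their mean of -1.39 ± 0.09 (SE). Ifit2 differed by -1.72 in brain against -1.61, -2.83 and -4.23 in heart, kidney and liver. Icam1 fell in brain (-1.58), heart (-1.11) and kidney (-0.93) and differed by 0.67 in liver. Tcf7l2 rose by 3.35 in brain against -0.09, -0.21 and 0.15, a difference of 3.40 ± 0.10 and the largest of any gene tested.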

How the data were processed

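RNA from mouse brain, heart, kidney and liver was labelled with Cy5 and hybridised to 36 one-colour arrays; only the 9 brain arrays enter the main comparison. The intensity values were deposited by the authors as 1 table, already normalized to a common distribution within brain; limma is named, with no version, per the submitters' processing notes, and the sources used here state no further steps. Of 18183 probes, 14503 were measured in brain, and 14817 carried 1 gene symbol, none carried several and 3366 had none; probes without a symbol or a brain value were left out. Of the symbols, 12468 were current in RefSeq, 2318 were matched through a synonym and 31 were kept as given. The probe with the highest mean intensity stood for a gene (1614 brain genes had more than 1).

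Intensities below 263, the lower 5% of brain values (5.01%), were set to that floor and log2 was taken. A group-means model of the 9 brain arrays was fitted with limma 3.58.1 in R 4.3.3 with eBayes, and p-values were adjusted by Benjamini-Hochberg over 10224 genes, with calls at 0.05; tables were handled with pandas 2.3.3 and numpy 2.4.6 under Python 3.11.15 and drawn with matplotlib 3.10.9. The contrast with other tissues came from a model of all 36 arrays. The scripts were tested on simulated data. An exact permutation test of 3 against 3 arrays cannot go below 0.1 and was not used. The number of arrays limits the precision; the median SE of a difference was 0.0887.

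Genes were named if they were among the 15 highest or lowest called differences outside the choroid plexus and thalamus lists with groups that did not overlap and values within the limits, among the 8 largest differences of those lists, among the 5 largest called of another list, or on a short panel of inflammatory genes. The members and lists were chosen with earlier results of these data known. Deviations of LPS and LPS plus genipin arrays with the same number in their titles correlated at 0.143, 0.193 and 0.179, and those with other numbers at -0.277 to 0.0943. Same-number deviations from mock arrays correlated with those of LPS arrays at 0.143, 0.0406 and -0.123. With those of LPS plus genipin arrays they correlated at -0.0327, 0.261 and -0.147. No label says that the numbers mark pairs or a batch, so a fit with the replicate number as a block was only an alternative. Other alternatives were the floor, a filter on dim genes, the arrays fitted, the scaling, the probe per gene, the spread model, the threshold and leaving out each array.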

Additional observations from a re-analysis of the deposited data

Results flagged for a closer look

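The change with genipin in brain was set against the mean change in heart, kidney and liver for the 23 genes of the largest changes, the inflammatory panel and the choroid plexus and thalamic lists that were measured in all 4 tissues. It differed for 21 of them, higher in brain for 13 and lower for 8. Many of the 23 were chosen for the size of their change in brain, so this count is a description and cannot be set against the share over all genes. Values are the log2 brain difference less that mean ± SE (n = 3 arrays per group), tested with limma in a model of all arrays.

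Among genes of the inflammatory response the brain difference was the lower one for 8. The interferon-stimulated list as a whole went the other way. Of its 26 genes measured in all 4 tissues, the brain difference was lower for 5 and higher for 13. Over all genes tested the shares were 25.2% lower and 18.7% higher. Rsad2, the antiviral enzyme viperin, differed by -1.39 ± 0.09 (adjusted p = 1.41e-12), from -3.43 in brain against -1.89 (heart), -0.93 (kidney) and -3.29 (liver). Tlr2 differed by -1.21 ± 0.12 (adjusted p = 4.57e-09), from -2.32 in brain against -0.94 (heart), -1.64 (kidney) and -0.74 (liver). Icam1, the leukocyte adhesion molecule, differed by -1.13 ± 0.09 (adjusted p = 4.67e-11), from -1.58 in brain against -1.11 (heart), -0.93 (kidney) and 0.67 (liver). The liver value of Icam1 has the opposite sign to the others. Irgm2 differed by -0.71 ± 0.11 (adjusted p = 5.86e-06), from -1.86 in brain against -1.54 (heart), -1.25 (kidney) and -0.65 (liver). Gbp2 differed by -0.42 ± 0.10 (adjusted p = 0.000692), from -2.61 in brain against -2.30 (heart), -2.05 (kidney) and -2.22 (liver). Nfkbia, the NF-kB inhibitor, differed by -0.41 ± 0.09 (adjusted p = 0.000357), from -0.70 in brain against -0.44 (heart), -0.20 (kidney) and -0.24 (liver). These are smaller differences between tissues than the fall within brain. Lcn2 differed by -0.38 ± 0.08 (adjusted p = 0.000259), from -0.69 in brain against -0.34 (heart), -0.59 (kidney) and -0.00 (liver). In brain the LPS arrays of Lcn2 lay just under saturation. Its levels in the other organs are not given here, so a gene at saturation there cannot be told from an unchanged one. Ifi47 differed by -0.34 ± 0.11 (adjusted p = 0.0167), from -2.38 in brain against -2.42 (heart), -1.99 (kidney) and -1.69 (liver).

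The brain difference was the higher one for 13 genes. Of these, 4 had differences below 0 in all tissues. Ifit2 differed by 1.17 ± 0.14 (adjusted p = 8.39e-08), from -1.72 in brain against -1.61 (heart), -2.83 (kidney) and -4.23 (liver). Ifit3 differed by 0.65 ± 0.13 (adjusted p = 0.000229), from -1.85 in brain against -2.35 (heart), -1.34 (kidney) and -3.81 (liver). Isg15 differed by 0.28 ± 0.10 (adjusted p = 0.0184), from -2.03 in brain against -2.27 (heart), -1.38 (kidney) and -3.30 (liver). These 3 interferon-stimulated genes had their largest fall in liver. Cd14, the LPS co-receptor, differed by 0.20 ± 0.08 (adjusted p = 0.0491), from -1.50 in brain against -1.28 (heart), -2.67 (kidney) and -1.14 (liver).

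The other 9 rose in brain. Tcf7l2, the thalamic transcription factor, differed by 3.40 ± 0.10 (adjusted p = 5.6e-21), from 3.35 in brain against -0.09 (heart), -0.21 (kidney) and 0.15 (liver). Tal1 differed by 1.95 ± 0.16 (adjusted p = 1.39e-10), from 1.97 in brain against -0.01 (heart), 0.06 (kidney) and 0.00 (liver). Zfhx3 differed by 1.91 ± 0.10 (adjusted p = 3.08e-15), from 2.23 in brain against 0.12 (heart), 0.54 (kidney) and 0.32 (liver). Tcf7l2 and Tal1 differed by little in the other organs, while Zfhx3 was also higher in kidney and liver (limma adjusted p = 4.69e-06 and 0.00151). Levels of Tal1 in the other organs are not given here, so a gene at the floor there cannot be told from an unchanged one. Amotl1 differed by 1.53 ± 0.11 (adjusted p = 9.77e-12), from 1.66 in brain against -0.34 (heart), 0.27 (kidney) and 0.44 (liver). Prkcd differed by 1.30 ± 0.11 (adjusted p = 2.06e-10), from 1.06 in brain against -0.40 (heart), 0.16 (kidney) and -0.48 (liver). Prkch differed by 1.20 ± 0.11 (adjusted p = 7.94e-10), from 1.45 in brain against 0.61 (heart), 0.18 (kidney) and -0.05 (liver). These 3 stand on the thalamic list. Enpp2, of choroid plexus and oligodendrocytes, differed by 1.41 ± 0.19 (adjusted p = 8.95e-07), from 0.92 in brain against -1.09 (heart), -0.22 (kidney) and -0.17 (liver). Cxcl12 differed by 0.81 ± 0.12 (adjusted p = 1.96e-06), from 1.52 in brain against 1.38 (heart), 0.70 (kidney) and 0.05 (liver). Slco2b1 differed by 0.50 ± 0.10 (adjusted p = 0.000202), from 1.33 in brain against 1.35 (heart), 1.24 (kidney) and -0.10 (liver). For Cxcl12 and Slco2b1 the heart values lay close to those of brain. The other Cxcl12 probe differed by only 0.24 in brain.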

How the results depend on the processing

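The fit with only the 6 arrays compared gave 999 genes higher and 907 lower against 1669 and 1414; it holds fewer arrays. A required change of at least 2-fold left 68 higher and 99 lower. Leaving out 1 array gave 1115 to 1896 higher and 1013 to 1590 lower, and for the contrast with other tissues 1088 to 1322 higher and 1546 to 1684 lower. With the replicate number as a block, 1695 were higher and 1428 lower; 2845 genes were called in both fits, all in the same direction, 238 only without and 278 only with the block. Of the named genes 10 lost their call with the block, Hsp90b1, Herpud1, Atf4, Sv2a (0.0589), Rarb, Dbh (0.0510), Slc6a3 (0.0640), Slc1a3 (0.0648), Pdgfra (0.0588) and Nefh (0.0682), with adjusted p from limma. Of 3600 alternatives for 204 named genes, 3383 kept direction and call, 209 lost the call and 5 gained it. In 3 the sign was no longer the same. Il15 was at 0.0 with the floor at the 10th percentile, which is no difference and not a reversal. Rarb was at 0.0509 and Gfap at -0.0437 as means of their probes. Their probes differed in sign, with -0.60 (used) and 0.70 for Rarb and 0.25 (used) and -0.34 for Gfap. Why the probes differ was not tested. Without dim genes, fewer genes were tested, and the counts were 7 of 9 interferon-stimulated (77.8%), 6 of 7 NF-kB (85.7%), 6 of 9 choroid plexus (66.7%) and 2 of 2 ependymal genes. Rescaling moved the median of all genes by at most 1.19e-04. For 311 genes a group lay wholly at a limit, so their folds are bounds, and for 190 no fold could be given.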

Other observations

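Some gene families were picked by symbol after the values were seen, so no test is attached. Over all genes 16.3% rose and 13.8% fell. Of 11 measured Sox transcription factors, regulators of progenitor and glial identity, 9 rose with genipin and none fell, with a median difference of 0.52 against 0.01 over all genes. Sox10, which directs oligodendrocyte development, rose by 0.98, Sox21 by 0.84 and Sox17, a factor of arterial endothelium, by 0.83. Of 17 Cfap, Rsph, Dnah and Tekt genes, most of which encode parts of motile cilia, 9 rose and none fell (median 0.49), among them Rsph4a by 0.81.

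Of 33 proteasome subunits 6 fell and none rose, a share near that of all genes; 2 of the 6, Psmb8 (-1.10) and Psmb9 (-0.99), are inducible subunits of the immunoproteasome and already stand on the interferon-stimulated list. Tubulins moved both ways, with 5 of 11 lower and 1 higher and Tubb6 at -1.10. Socs3, the feedback inhibitor of STAT3, fell by 0.97 and Stat3 by 0.54. Of 66 mitochondrial ribosomal proteins 3 rose and 3 fell, and of 206 Zfp genes 24 rose and 21 fell.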
